A study of Mus musculus with 52 samples.

Results

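The genes described here are 7 transcription factor genes linked to the endothelial cell (EC) barrier state: the forkhead (FOX) genes Foxf2, Foxq1, Foxc1 and Foxl2 and the SOX genes Sox7, Sox17 and Sox18. They were chosen by name, and each was followed by its estimated reads and its TPM (a relative transcript level, corrected for transcript length and library size), summed over its transcripts, in 40 RNA libraries, and by the ATAC-seq peaks within 50 kb of it in 12 libraries. They are 7 of the 49509 genes with a transcript in the files, of which 21817 are protein-coding. All 7 passed the filter on low counts in sorted ECs and in ribosome-bound RNA. In GFP-negative cells 5 passed, and Sox17 and Sox18 did not.

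Capillary ECs of the brain form the blood-brain barrier (BBB), in which tight junctions and transporters take the place of open pores. Wnt ligands keep ECs in this state through beta-catenin, which enters the nucleus and acts with TCF/LEF DNA-binding proteins. ECs of the circumventricular organs, such as the posterior pituitary, and of the choroid plexus lie within or beside the brain but have a fenestrated, permeable state with little beta-catenin signaling. FOX and SOX proteins are sequence-specific DNA-binding factors. Foxf2 is known from brain pericytes and brain ECs, Foxq1 is enriched in brain ECs, Foxc1 acts in vascular and meningeal development, and Foxl2 is known from ovarian granulosa cells and pituitary gonadotropes. Sox7, Sox17 and Sox18 form the SOXF subfamily, which acts in arterial, venous and lymphatic EC differentiation.

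On GRCm38, the 3 FOX genes Foxq1 (chr13:31556134-31560976), Foxf2 (chr13:31625816-31631403) and Foxc1 (chr13:31806633-31812476) lie on the plus strand of 1 stretch of chromosome 13, in that order. Foxq1 and Foxf2 are 64839 bp apart, and Foxf2 and Foxc1 are 175229 bp apart. Foxl2 (chr9:98955288-98958543) and Sox7 (chr14:63943673-63950732) are on the plus strand, and Sox17 (chr1:4490931-4497354) and Sox18 (chr2:181669836-181671640) are on the minus strand. Sox17 has 8 annotated transcripts and each other gene has 1. Foxq1, Foxl2, Foxf2 and Sox17 each overlap an annotated gene on the opposite strand (A530084C06Rik, Foxl2os, Gm27516 and Gm37587). Whether the libraries keep strand was not stated in the sources used here, so reads in those overlaps could not be told apart.

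The study asked whether stabilizing beta-catenin in ECs moves permeable vessels toward the BBB state. Sorted ECs came from male Tie2-GFP mice, in which a transgene marks ECs with GFP (WT), and from mice carrying Tie2-GFP, Pdgfb-CreER and BcatEx3fl, in which 100 µg of 4-hydroxytamoxifen (4HT) at postnatal day 10 removes exon 3 of Ctnnb1 in ECs and so leaves a stabilized beta-catenin. The WT animals of the sorted set are listed without Cre, and 4HT is named for the stabilized mice alone. Cre, any difference in 4HT and stabilization therefore cannot be told apart there. GFP-positive and GFP-negative cells were taken from cerebellum and from each pituitary lobe of mice at postnatal days 30 to 90, with 20 to 30 pituitaries pooled per replicate. RiboTag mice carried Rpl22ribotag/+ and Pdgfb-CreER, with or without BcatEx3fl. Both RiboTag genotypes received 4HT several weeks before cortex and choroid plexus were taken at 6 to 8 weeks, with the choroid plexi of 3 to 4 animals pooled per sample. In these mice Cre places an HA tag on EC ribosomes, so that anti-HA precipitation gives the bound RNA, which was sequenced beside the input. In both designs the Cre was driven in ECs by Pdgfb-CreER and recombination was mosaic, so stabilized groups can hold ECs that kept exon 3. Each of the 26 groups had 2 libraries: 24 sorted RNA libraries, 16 RiboTag libraries and 12 ATAC-seq libraries of sorted ECs.

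Sorted RNA libraries held 12157485 to 37529274 reads and RiboTag libraries held 6409013 to 21399125. The summed level of 9 EC markers was 1797 to 6149 TPM in GFP-positive cells and 1.86 to 35.0 TPM in GFP-negative cells. Pituitary GFP-positive libraries also held 346 to 6855 TPM of endocrine marker RNA. One library, stabilized anterior pituitary ECs replicate 2, is called anterior in its title and source but posterior in its tissue tag. It was kept as anterior, and fitted changes of the genes described here that rest on it are given with and without it. Without it its group holds a single library, and the other groups give the spread. Counts for lists of other genes are given with it. The 4 WT cortex RiboTag libraries stood apart from the other 12: the mean effective transcript length per read, which the quantification program Salmon estimates in each library, was 511 to 627 bases against 209 to 312 bases, the median ratio of effective to full length of transcripts of 2 to 4 kb was lower (0.570 to 0.626 against 0.711 to 0.807), and they were deeper (14699601 to 21399125 reads against 6409013 to 11688829). Genotype and this library profile cannot be told apart in cortex. A difference between groups was called when the adjusted p of edgeR's quasi-likelihood test (Benjamini-Hochberg over all genes tested) was under 0.05 and the change was at least 2-fold. Values in the form a ± b after a fold change are log2 units with a standard error derived from the test. This error is the absolute change divided by the square root of the test's F statistic. Where a group has few reads, it can be smaller than the shift from leaving out a single library.

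In WT ECs, Foxf2, Foxq1 and Foxc1 were higher in the cerebellum, a BBB tissue, than in either pituitary lobe, whereas Foxl2, Sox7, Sox17 and Sox18 did not pass the test in either comparison. Against the anterior pituitary 3 of the 7 genes were called, where 5.25% of 17900 genes tested were called. Against the posterior pituitary 3 of 7 were called, where the background was 4.4%. In bulk RNA a lower level may mean fewer cells with the transcript or less of it per cell, and the libraries cannot separate these. Marker RNA of mural cells (pericytes and smooth muscle) in the sorted ECs also differed, with summed levels of 602 to 731 TPM in the WT cerebellum, 189 to 224 TPM in the anterior and 84.7 to 158 TPM in the posterior pituitary. Its part in these differences was not tested.

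Foxf2 measured 40.9 and 37.2 TPM in the WT cerebellum libraries, 0 and 0 TPM in the anterior pituitary and 6.91 and 7.51 TPM in the posterior pituitary. No WT anterior pituitary library had a Foxf2 read, against 5433 reads in the cerebellum. With the anterior pituitary set at a floor of 3 reads over the group, Foxf2 was at least 1936-fold higher in cerebellar ECs (adjusted p = 8.43e-06). Against the posterior pituitary Foxf2 was higher by 2.66 ± 0.54 (adjusted p = 0.0144), a call that was lost when effective lengths were used as an offset (2.78, adjusted p = 0.0717). Between the pituitary lobes Foxf2 was at least 298-fold higher in the posterior lobe (666 against 0 reads, adjusted p = 0.000156), and that call was lost when the fit held those 2 groups alone (adjusted p = 0.131).

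Foxq1 was at or near 0 in both pituitary lobes. The WT cerebellum libraries held 29.2 and 22.1 TPM, the anterior pituitary 0 and 0 TPM, and the posterior pituitary 0 and 0.0711 TPM, the last from 8 reads in 1 library. The cerebellum did not overlap either lobe, as was so for 41.1% of all genes against the anterior and 37.5% against the posterior pituitary. Foxq1 was at least 4229-fold higher in cerebellar than in anterior pituitary ECs (11870 against 0 reads, adjusted p = 2.09e-05), and higher by a fitted 9.96 ± 0.92 than in posterior pituitary ECs (adjusted p = 7.37e-05), a size that rests on those 8 reads.

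Foxc1 was expressed in all 3 tissues. Its TPM were 21.3 and 26.2 in the cerebellum, 5.06 and 6.14 in the anterior pituitary, and 3.54 and 2.72 in the posterior pituitary. Neither pituitary lobe reached the cerebellar range (the same 41.1% and 37.5% of all genes did not overlap). Foxc1 was higher in the cerebellum than in the anterior pituitary by 2.12 ± 0.34 (adjusted p = 0.00206) and than in the posterior pituitary by 3.22 ± 0.36 (adjusted p = 0.000176).

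The order of the 3 tissues differed among the genes, and for Foxl2 and the SOXF genes most neighbours in the order were within the spread of their libraries. Foxl2 measured 4.28 and 7.06 TPM in the cerebellum, 5.75 and 11.0 TPM in the anterior pituitary and 1.18 and 2.75 TPM in the posterior pituitary, with the first 2 tissues overlapping. Foxl2 differed by -0.67 ± 0.60 between cerebellum and anterior pituitary (adjusted p = 0.638) and by 2.43 ± 0.63 between the pituitary lobes (adjusted p = 0.113). Sox7 measured 29.4 and 13.2 TPM, 15.5 and 28.0 TPM, and 25.1 and 20.7 TPM in the same order, so all 3 tissues overlapped. Its difference between cerebellum and anterior pituitary was 0.07 ± 0.33 (adjusted p = 0.994) and between cerebellum and posterior pituitary 0.22 ± 0.33 (adjusted p = 0.834).

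Sox17 and Sox18 varied widely between replicates. Sox17 measured 42.2 and 27.4 TPM in the cerebellum, 10.3 and 20.7 TPM in the anterior pituitary and 7.18 and 29.0 TPM in the posterior pituitary. Its difference of 2.1 ± 0.64 between cerebellum and anterior pituitary did not pass (adjusted p = 0.0943). Sox18 measured 19.8 and 38.0 TPM, 8.80 and 14.1 TPM, and 34.4 and 143 TPM in the same order, with the highest value in 1 posterior pituitary library. Sox18 differed by 1.65 ± 0.64 between cerebellum and anterior pituitary (adjusted p = 0.220) and by -2.59 ± 0.66 between the anterior and posterior lobes (adjusted p = 0.103). Between the lobes 1 of the 7 genes, Foxf2, was called, where the background was 0.994%.

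**Figure D1:**
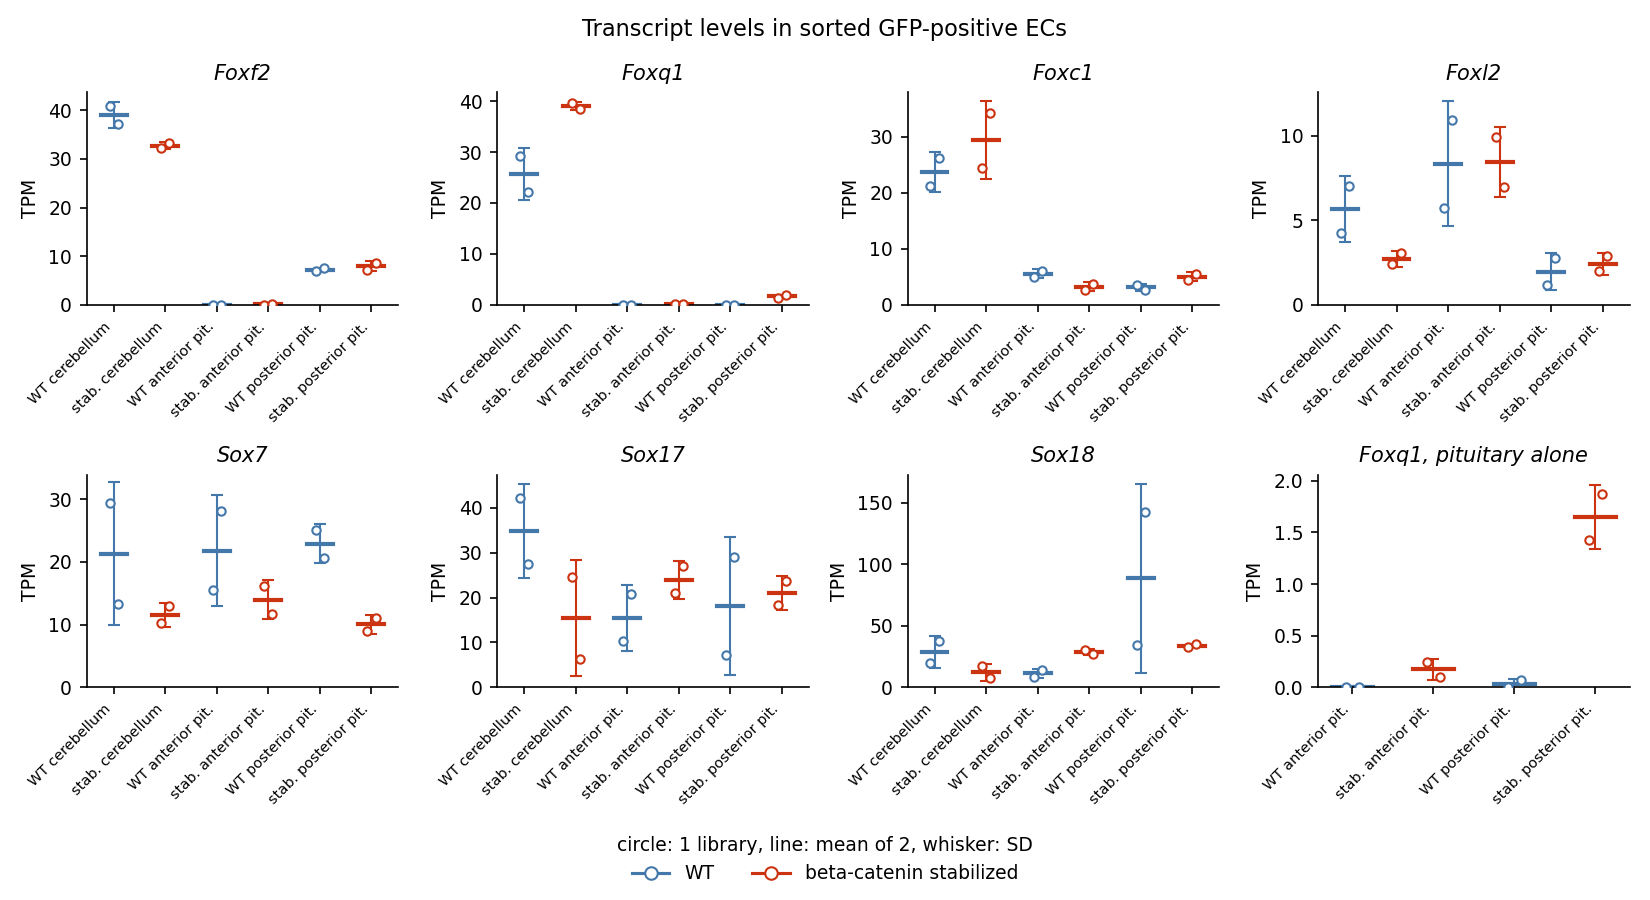
TPM of each gene in sorted GFP-positive ECs by tissue and genotype, with 1 circle per library, a line at the mean of 2 and a whisker of 1 SD; the last panel repeats Foxq1 in the pituitary on its own scale. Foxf2, Foxq1 and Foxc1 sit highest in both cerebellum groups, and Foxq1 rises from at most 0.0711 TPM in WT to 1.43 and 1.87 TPM in stabilized posterior pituitary ECs.

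Stabilizing beta-catenin was followed by higher Foxq1 in both pituitary lobes and by no called change of any of the 7 genes in the cerebellum. The background was 0.458% of genes called in the anterior pituitary, where 1 of 7 was called, 1.82% in the posterior pituitary, where 1 of 7 was called, and 0.648% in the cerebellum, where 0 of 7 were called. In the cerebellum 0 of the 7 had an unadjusted p under 0.05, against 1749 of all genes tested, and DESeq2 also called 0 of the 7. In every tissue the stabilized mice also differ from WT in Cre, and 4HT is named for them alone.

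In posterior pituitary ECs Foxq1 went from 0 and 8 reads to 283 and 406 reads, or to 1.43 and 1.87 TPM. All stabilized values were above both WT values, where 46.5% of all genes tested did not overlap in TPM, and the fitted change was 6.43 ± 0.84 (adjusted p = 0.00264). Its size rests on the 8 WT reads, with a fitted 5.11 without WT replicate 1 and 11.84 without WT replicate 2, which held those reads. The call was kept without each library in turn and was lost when the fit held only these 2 groups (adjusted p = 0.258). The stabilized level was still below WT cerebellar ECs (-3.53 ± 0.65, adjusted p = 0.0115; 0.0515 with the effective length offset).

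In anterior pituitary ECs Foxq1 went from 0 and 0 reads to 40 and 19 reads, or to 0.243 and 0.105 TPM, at least 24.8-fold (adjusted p = 0.0372). This level was the lowest of the stabilized tissues. Leaving out either WT anterior pituitary library, or fitting these 2 groups alone, ended the call (adjusted p up to 0.202). Without the library with the conflicting tissue tag the fitted change was 8.26, which rests on a single stabilized library against 0 WT reads. The posterior response minus the anterior response was -1.47 ± 1.52 (adjusted p = 0.871), a fitted value that rests on the groups with few or no reads. It was -1.82 without the library with the conflicting tag and turned to 3.89 without WT posterior pituitary replicate 2, so no direction is read from it.

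Foxc1 had the next-largest ratio of change to error in the posterior pituitary. Its levels were 3.54 and 2.72 TPM in WT and 4.49 and 5.57 TPM in stabilized ECs. These do not overlap, as was so for 46.5% of all genes tested there. The change of 1.36 ± 0.34 did not pass (adjusted p = 0.0678), although DESeq2 called it (1.38, adjusted p = 0.00379), as did scaling to the reads of the EC markers (2.35, adjusted p = 0.00276), a scaling that by itself moved the median of all genes to 1.0. Of 12 alternatives 4 called it, DESeq2 and this scaling among them. In the anterior pituitary Foxc1 measured 5.06 and 6.14 TPM in WT and 2.71 and 3.80 TPM in stabilized ECs. The change was -0.86 ± 0.33 (adjusted p = 0.589), and -1.35 without the library with the conflicting tag. The posterior response of Foxc1 minus its anterior response was 2.23 ± 0.47 (adjusted p = 0.131). It was 2.74 without the library with the conflicting tag, which leaves a single stabilized anterior pituitary library. Of 16 alternatives 5 called this difference, fits that leave a single library in a group among them. Of the 7 genes 0 had a called difference of responses with all libraries, where the background was 0.128%, while 3 of the 7 and 1629 of all genes had an unadjusted p under 0.05 and DESeq2 called 1 of the 7.

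Foxf2, which also was higher in the cerebellum than in the pituitary, showed no called change. Stabilized anterior pituitary libraries held 8 Foxf2 reads in all against 0 in WT (0.0194 and 0.164 TPM, adjusted p = 0.173, or 1.0 without the library with the conflicting tag). In the posterior pituitary Foxf2 measured 6.91 and 7.51 TPM in WT and 7.24 and 8.65 TPM in stabilized ECs (0.31 ± 0.51, adjusted p = 0.862). In the cerebellum the levels were 40.9 and 37.2 TPM against 32.2 and 33.3 TPM (-0.17 ± 0.51, adjusted p = 1.0).

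Foxq1 and Foxc1 in the cerebellum measured 39.6 and 38.5 TPM and 24.5 and 34.3 TPM after stabilization, with changes of 0.50 ± 0.59 (adjusted p = 0.833) and 0.23 ± 0.33 (adjusted p = 0.883). Foxl2 measured 2.40 and 3.06 TPM in stabilized cerebellar ECs, below both WT values (33% of all genes tested did not overlap there), with a change of -1.14 ± 0.61 that did not pass (adjusted p = 0.536). In the pituitary Foxl2 measured 9.90 and 6.97 TPM in the stabilized anterior lobe and 1.98 and 2.89 TPM in the stabilized posterior lobe, each overlapping its WT group.

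Of the SOXF genes none had a called change in sorted ECs. Stabilized cerebellar ECs held 10.2 and 12.9 TPM of Sox7, 24.5 and 6.32 TPM of Sox17 and 17.2 and 7.52 TPM of Sox18, all below both WT values of the same gene. In this comparison the TPM of the groups did not overlap for 33% of all genes tested. Their changes were -0.62 ± 0.33 for Sox7, -1.04 ± 0.62 for Sox17 and -1.09 ± 0.63 for Sox18, with adjusted p from 0.535 to 0.564. In the stabilized anterior pituitary Sox17 measured 21.01 and 26.95 TPM and Sox18 measured 30.3 and 27.1 TPM, above both WT values for each gene, where 40.4% of genes did not overlap, and both changes were 1.29 ± 0.63 (adjusted p = 0.698). Without the library with the conflicting tag they were 0.91 for Sox17 (adjusted p = 1.0) and 1.39 for Sox18 (adjusted p = 0.850). In the stabilized posterior pituitary Sox7 measured 8.98 and 11.0 TPM, below both WT values (46.5% of genes did not overlap there), with a change in reads of -0.16, whereas Sox17 (18.4 and 23.7 TPM) overlapped its WT group. Sox18 there measured 32.9 and 35.0 TPM, on both sides of the lower WT value (-0.67 ± 0.62, adjusted p = 0.688).

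Reads and TPM thus differed for Sox7 in the posterior pituitary, where TPM takes in the effective lengths of each library and reads do not. The mean effective length per read was 351 to 357 bases in stabilized and 511 to 574 bases in WT posterior pituitary ECs.

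Levels in stabilized pituitary ECs remained below those of WT cerebellar ECs for the same 3 FOX genes. In the anterior pituitary the log2 difference was -9.08 ± 0.75 for Foxf2, -7.42 ± 0.79 for Foxq1 and -2.98 ± 0.36 for Foxc1 (adjusted p from 4.66e-05 to 0.000329), which makes 3 of 7 called, where the background was 4.0%. Without the library with the conflicting tag, which leaves a single stabilized library, the differences were -11.10, -7.07 and -3.47. In the posterior pituitary it was -2.35 ± 0.53 for Foxf2 (adjusted p = 0.0341), -3.53 for Foxq1 and -1.86 ± 0.34 for Foxc1 (adjusted p = 0.00933), again 3 of 7, where the background was 3.34%. Under the effective length offset none of these 3 posterior pituitary differences was called, at -1.81 for Foxf2, -3.46 for Foxq1 and -1.77 for Foxc1. The Foxf2 call was also lost without each of the 4 libraries in turn, and the Foxc1 call without stabilized posterior pituitary replicate 1.

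**Figure D2:**
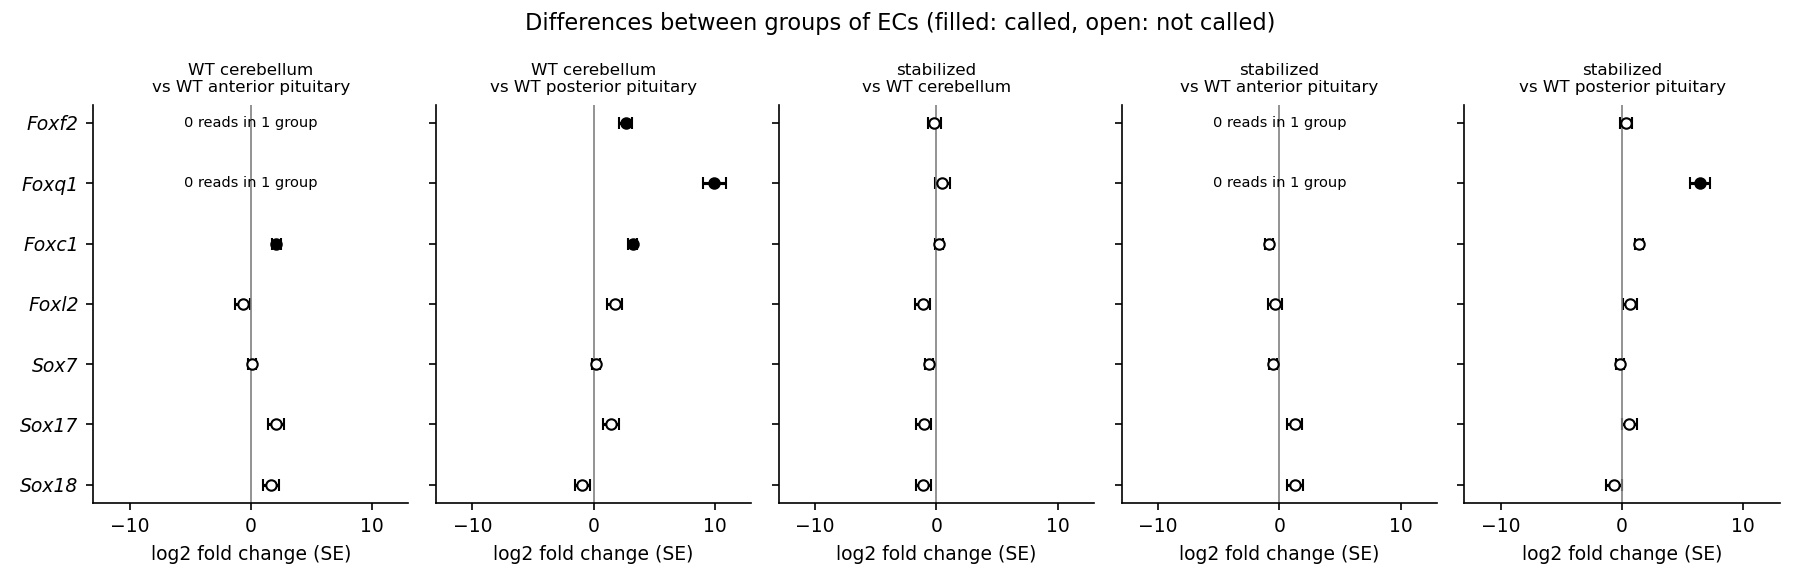
Log2 fold changes in reads between groups of sorted ECs, with 1 SE on each side; filled points passed the test, open points did not, and no point is drawn where 1 group had 0 reads. Foxf2, Foxq1 and Foxc1 are the genes higher in WT cerebellum, and Foxq1 is the only filled point among the 3 comparisons of stabilized with WT, beside the anterior pituitary where its WT group had 0 reads.

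Marker RNA of ECs and of other cells differed with stabilization. In the cerebellum EC markers were at 2818 to 3143 TPM in WT and 2096 to 2367 TPM in stabilized ECs, and mural markers at 602 to 731 TPM and 375 to 446 TPM. The summed microglia and macrophage markers went from 38.0 to 44.6 TPM in WT to 201 to 305 TPM in stabilized anterior pituitary ECs, and from 37.6 to 58.1 TPM to 244 to 323 TPM in the posterior pituitary. Choroid plexus epithelial markers went from 1.90 to 5.76 TPM to 50.1 to 80.8 TPM in the anterior and from 24.2 to 40.3 TPM to 241 to 293 TPM in the posterior pituitary. In the posterior pituitary mural markers were at 84.7 to 158 TPM in WT and 48.4 to 55.02 TPM in stabilized ECs, and EC markers at 4186 to 6149 TPM and 1797 to 2134 TPM. The part of these in the Foxq1 result and in the lower cerebellar levels of Foxl2 and the SOXF genes was not tested. GFP-negative cells had at most 0.202 TPM of Foxq1 in any library.

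The GFP-negative cells serve as the background for the sorted ECs. In them Foxc1 was the gene detected throughout, at 0.679 to 2.87 TPM, with Foxf2 at 0 to 1.86 TPM and Foxl2 at 0 to 2.14 TPM, the last in the anterior pituitary. Sox7, Sox17, Sox18 and Foxq1 stayed at or under 0.721 TPM in every GFP-negative library. In the WT cerebellum 6 of the 7 genes were called higher in GFP-positive cells, where 11.4% of genes were called. The changes ranged from 3.30 ± 0.48 for Foxc1 (adjusted p = 0.000158) to 8.20 ± 1.70 for Sox7 (adjusted p = 0.00322). Foxf2, at 1.86 TPM in 1 GFP-negative library and 0.101 TPM in the other, differed by 5.27 ± 1.86 and did not pass (adjusted p = 0.0830). Mural marker RNA was also higher in GFP-positive cells, at 602 to 731 against 96.6 to 258 TPM in the WT cerebellum. It was at 189 to 224 against 22.1 to 23.9 TPM in the WT anterior pituitary. In the WT posterior pituitary it was at 84.7 to 158 against 5.22 to 21.7 TPM. Its part in the differences between GFP-positive and GFP-negative cells was not tested.

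In the WT anterior pituitary 4 of 7 were called higher in ECs, where the background was 11.3%: Foxc1 by 2.34 ± 0.46, Sox7 by 6.31 ± 1.54, Sox18 by 6.77 ± 1.65, and Sox17 at least 378-fold (1041 against 0 reads). Foxf2 and Foxq1 had 0 reads in these ECs, against 32 and 70 in the GFP-negative cells. Foxl2 measured 5.75 and 11.0 TPM in GFP-positive and 0.850 and 0.830 TPM in GFP-negative anterior pituitary cells and did not pass (3.27 ± 1.23, adjusted p = 0.104). In the posterior pituitary 5 of 7 were called, where the background was 14.5%. Foxf2 (at least 253-fold), Foxl2 (at least 111-fold), Sox17 (at least 387-fold) and Sox18 (at least 1410-fold) had 0 reads in GFP-negative cells there. Sox7 was higher in ECs by 5.39 ± 1.47. Foxc1 was the exception there, with 1.65 and 1.40 TPM in GFP-negative cells and a difference of 0.71 ± 0.44 (adjusted p = 0.314). When only the compared groups were fitted, the calls of Sox18 in the cerebellum (adjusted p = 0.0545), of Sox7 and Sox18 in the anterior pituitary (0.0601 and 0.0713) and of Foxf2, Foxl2 and Sox7 in the posterior pituitary (0.0544, 0.115 and 0.0937) were lost.

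Stabilization was followed by no called change in GFP-negative cells. Of the 5 tested, 0 were called in the cerebellum, anterior pituitary or posterior pituitary, where the background was 0.76%, 0.0408% and 0.133%. None of the 5 had an unadjusted p under 0.05, against 2137, 1079 and 1948 of all genes, and DESeq2 called 0 of them in each tissue.

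In RiboTag RNA of WT mice the bound fraction held more of these transcripts than the input. In cortex all 7 were called higher in bound RNA, where the background was 11.7% and the median of all genes was -0.33. The differences were 5.12 for Foxf2, 4.26 for Foxq1, 2.59 for Foxc1, 3.95 for Sox17 and 5.82 for Sox18. Foxl2 and Sox7 had 1 input read each, which gave ratios of 120 (95% counting interval 21.1 to 4780) and 302 (53.7 to 11950). In choroid plexus 5 of 7 were called, where the background was 15.6%: Foxf2 by 1.82, Foxq1 by 3.18, Sox7 by 3.44, Sox17 by 4.00 and Sox18 by 4.31. Foxc1 differed by -0.02 ± 0.35 (adjusted p = 0.996) and Foxl2 by 1.51 ± 1.01 (adjusted p = 0.333; -0.22 without bound replicate 2). For Foxc1 the TPM were 0.387 and 0.387 in input and 0.952 and 0.503 in bound RNA, so the TPM did not overlap where the reads did not pass, and 64.9% of all genes tested did not overlap in TPM. Of the calls in choroid plexus, that of Foxf2 was lost with the effective length offset or without either input library or bound replicate 1, that of Foxq1 without input replicate 1, and that of Sox17 without either input library or bound replicate 2. In cortex the Sox17 call was lost without bound replicate 1, and those of Sox17 and Foxl2 when only the compared groups were fitted. Microglia and macrophage markers were at 94.4 to 102 TPM in WT cortex input and 2509 to 3609 TPM in bound RNA. EC markers there were at 35.5 to 50.8 TPM and 360 to 969 TPM. In WT choroid plexus these were at 10.1 to 11.4 and 83.3 to 111 TPM for microglia, and 27.4 to 29.0 and 449 to 543 TPM for ECs. The part of the microglia markers in these results was not tested.

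Between WT tissues the bound RNA of cortex and choroid plexus differed by read counts for 2 of the 7 genes, Foxq1 and Sox18, where 29.8% of genes tested were called. Foxq1 measured 6.89 and 4.43 TPM in cortex and 0.176 and 0.385 TPM in choroid plexus. It was higher in cortex by 2.89 ± 0.39 (adjusted p = 0.000600), which has the same sign as its difference between cerebellar and pituitary ECs. Sox18 measured 9.85 and 10.1 TPM in cortex and 9.06 and 18.0 TPM in choroid plexus, which overlap, while its read counts differed by -2.84 ± 0.34 (adjusted p = 0.000302; -1.60 with the effective length offset, also called). The same offset also made Foxf2 higher in cortex (1.71, adjusted p = 0.0386), in which its TPM were 6.45 and 11.1 against 1.38 and 1.03. The TPM of Foxc1 (5.31 and 2.82 against 0.952 and 0.503), Foxl2 (0.658 and 1.23 against 0.0656 and 0.421) and Sox17 (22.0 and 5.35 against 2.3 and 3.46) did not overlap either, as was so for 70.9% of all genes tested, while their reads did not pass (0.71, 0.34 and -0.20, adjusted p from 0.215 to 0.842). Cortex bound RNA held 2509 to 3609 TPM of microglia and macrophage markers against 83.3 to 111 TPM in choroid plexus. Neuron markers were at 1174 to 1451 against 12.4 to 15.9 TPM, and choroid plexus epithelial markers at 3.88 to 16.6 against 19093 to 20075 TPM. The part of these was not tested. Tissue and the library profile of WT cortex cannot be told apart here.

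After stabilization, Sox18 was higher in cortex bound RNA by read counts, by TPM and with the effective length offset. It measured 9.85 and 10.1 TPM in WT cortex against 25.3 and 25.8 TPM in stabilized cortex, and its CPM (read counts scaled to library size with TMM factors) were 8.69 and 9.08 against 128 and 145. The change in reads was 3.94 ± 0.35 (adjusted p = 0.000705), and the offset brought it to 2.36 (adjusted p = 0.0276). The call held without each library in turn. Foxf2 (2.22 ± 0.39, adjusted p = 0.0121), Foxc1 (2.08 ± 0.41, adjusted p = 0.0204) and Sox7 (1.74 ± 0.42, adjusted p = 0.0410) were also called by reads, which makes 4 of 7, where the background was 6.31%.

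The reads and the TPM of Foxf2 and Foxc1 did not move alike. Foxf2 had 11.4 and 19.3 CPM in WT and 65.5 and 78.2 in stabilized cortex, but 6.45 and 11.1 TPM against 7.40 and 7.68 TPM, which overlap. Its effective length was 974 and 991 bases in the WT cortex bound libraries and 2258 to 2892 bases in the other bound libraries, for a transcript of 2363 bases. With the offset Foxf2 (0.77, adjusted p = 0.404), Foxc1 (1.08, adjusted p = 0.243) and Sox7 (1.74, adjusted p = 0.117) were not called, and with scaling to EC marker reads Sox18 alone was (3.0, adjusted p = 0.0156). Without stabilized cortex replicate 1 or 2 the calls of Foxc1 and Sox7 were lost, and without replicate 2 that of Foxf2. The Sox7 call was also lost without WT cortex replicate 2 and with the replicate block.

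The TPM of Foxc1 (5.31 and 2.82 in WT, 4.03 and 4.46 in stabilized cortex) overlapped, and those of Sox7 (2.90 and 1.73 against 3.45 and 4.22) did not, where 62.1% of genes did not overlap. Sox17 measured 22.0 and 5.35 TPM against 25.7 and 18.1 TPM (2.26 ± 0.68 in reads, adjusted p = 0.0835). Foxq1 measured 6.89 and 4.43 TPM against 3.73 and 3.91 TPM, a lower level, while its reads gave 1.14 ± 0.35 (adjusted p = 0.0915). The bound RNA of the WT cortex libraries also held more marker RNA of other cells: 2509 to 3609 TPM of microglia markers against 981 to 1148 TPM in stabilized cortex, and 1174 to 1451 TPM of neuron markers against 354 to 400 TPM. The part of these in the results was not tested.

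In choroid plexus bound RNA Foxf2 and Foxq1 were called, 2 of 7, where the background was 0.853%. Foxf2 measured 1.38 and 1.03 TPM in WT and 4.16 and 5.94 TPM in stabilized choroid plexus, and its change was 2.15 ± 0.39 (adjusted p = 0.0437). Foxq1 measured 0.176 and 0.385 TPM in WT and 1.68 and 1.52 TPM after stabilization, and its change was 2.66 ± 0.39 (adjusted p = 0.0156). For both genes the groups do not overlap in TPM or in reads, where the TPM of 40.8% of all genes tested did not overlap. The effective length offset left the sizes at 2.16 and 2.60 but not the calls (adjusted p = 0.167 and 0.111), and scaling to EC markers gave 1.74 and 2.3 (adjusted p = 0.436 and 0.134). The Foxf2 call was also lost without either WT library or stabilized replicate 2 and with the replicate block (adjusted p = 0.0629), and the Foxq1 call without WT replicate 1. These libraries carried 19093 to 20075 TPM of choroid plexus epithelial marker RNA in WT and 11894 to 13499 TPM after stabilization, with EC markers at 449 to 543 TPM and 736 to 1112 TPM. The part of this shift in the results was not tested beyond the EC marker scaling.

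The remaining genes had stabilized TPM above WT TPM in choroid plexus without passing the test, except that Sox18 overlapped. As above, 40.8% of all genes tested did not overlap in TPM. Foxc1 measured 0.952 and 0.503 TPM against 2.90 and 2.33 TPM (1.99 ± 0.42, adjusted p = 0.0739), Foxl2 0.0656 and 0.421 TPM against 0.717 and 1.16 TPM (2.18 ± 0.83, adjusted p = 0.289), and Sox7 2.15 and 1.55 TPM against 3.50 and 3.86 TPM (1.09 ± 0.42, adjusted p = 0.293). Sox17 measured 2.3 and 3.46 TPM against 10.8 and 14.5 TPM (1.91 ± 0.68, adjusted p = 0.256). Sox18 measured 9.06 and 18.0 TPM against 17.5 and 24.3 TPM (0.77 ± 0.31, adjusted p = 0.317).

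The responses of choroid plexus and cortex differed for 1 of the 7 genes, Sox18, where the background was 2.15%. Its choroid plexus response minus its cortex response was -3.17 ± 0.45 (adjusted p = 0.0130), and this was not called with the effective length offset (-1.64, adjusted p = 0.232) or the EC marker scaling (-2.56, adjusted p = 0.186). The same difference for Foxq1 was 1.52 ± 0.51 (adjusted p = 0.170).

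**Figure D3:**
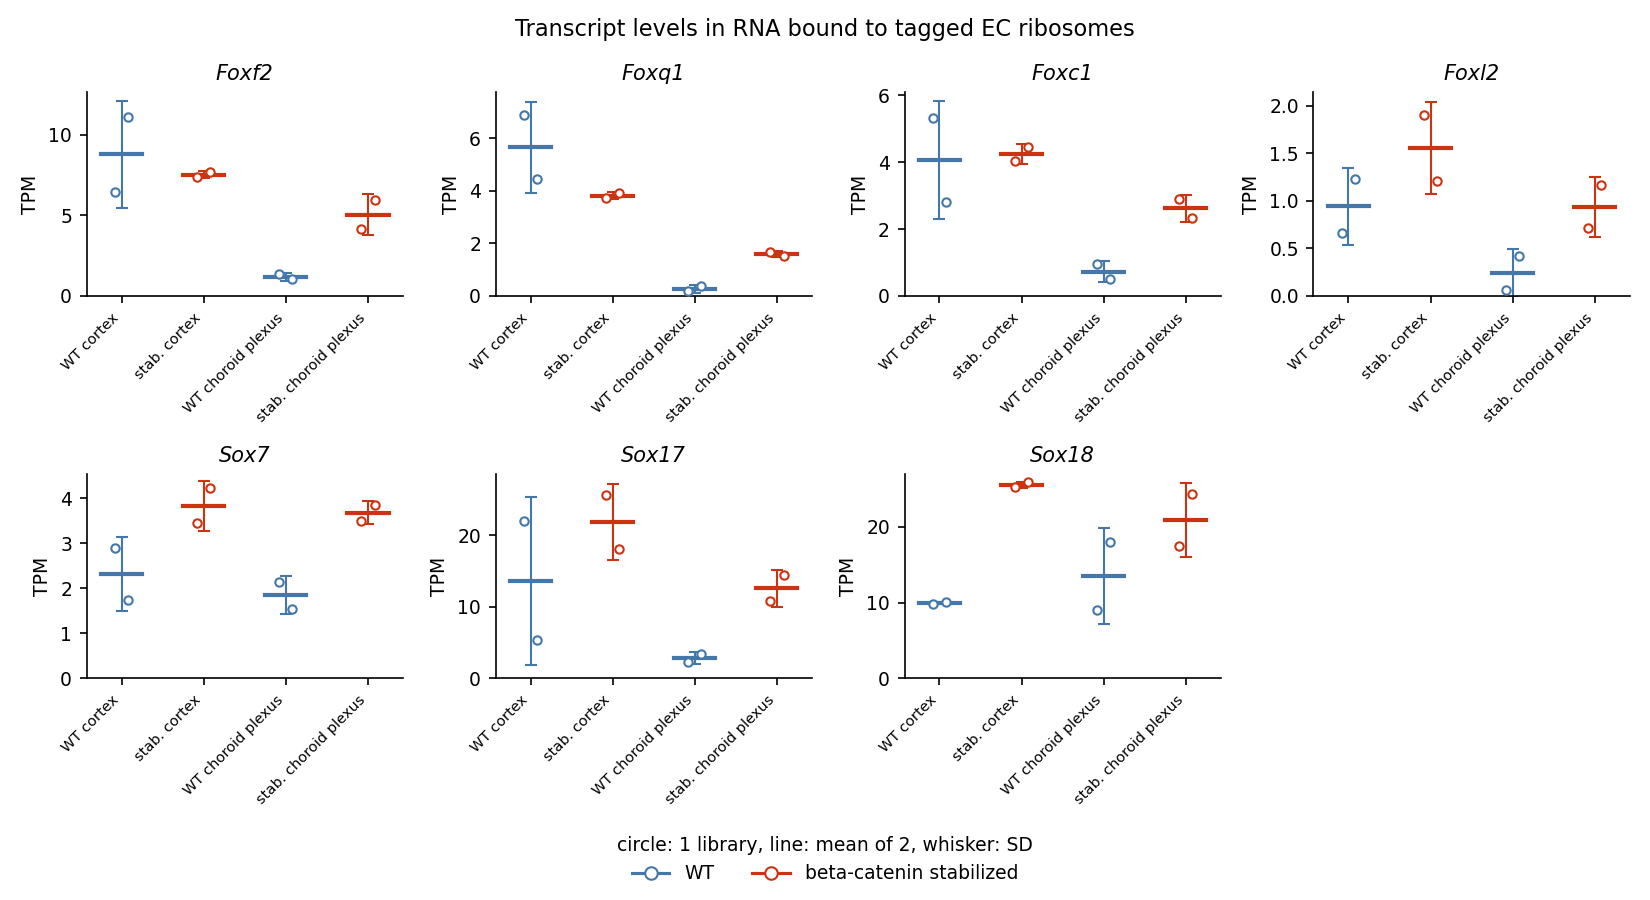
TPM of each gene in RNA bound to tagged EC ribosomes of cortex and choroid plexus, with 1 circle per library, a line at the mean of 2 and a whisker of 1 SD. Foxf2 and Foxq1 are higher in both stabilized than in both WT choroid plexus libraries, and Sox18 is at 25.3 and 25.8 TPM in stabilized against 9.85 and 10.1 TPM in WT cortex.

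ATAC-seq measures accessible chromatin by transposase insertion. The authors called peaks in each library alone, and those enriched more than 2-fold at a -log10 q above 2 were used, 20634 to 45040 per library. Within 50 kb of the 7 genes these formed 64 distinct regions. In the tests by tissue below, a peak belongs to a group when both replicates have it, and to no group it is set against when neither replicate has it. Distances are from the transcription start site, in the direction of the gene.

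Foxf2 was the 1 gene of the 7 with peaks in WT cerebellar and not WT anterior pituitary ECs, where 13.5% of protein-coding genes had such a peak. It had 2 of them. The region 39.5 kb downstream (chr13:31664986-31665567, intergenic) had a fold enrichment of 6.39 and 4.63 in WT and 7.77 and 4.26 in stabilized cerebellar ECs, and no peak in any of the 8 pituitary libraries. The region 5.5 kb upstream (chr13:31619717-31620720, within an intron of 1700018A04Rik) had 6.52 and 5.65 in WT and 6.64 and 7.21 in stabilized cerebellar ECs, no peak in the 4 anterior pituitary libraries and a peak in 1 library of each posterior pituitary group (3.70 and 3.27). The peak at the Foxf2 start site itself was in all 12 libraries, including the WT anterior pituitary ECs that had no Foxf2 read, where it was 3.20 and 3.79. Both regions were thus present in cerebellar ECs of both genotypes and in no anterior pituitary library.

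The 201 bases around the summits of these Foxf2 regions are shown because they mark the accessible sites found in cerebellar and not in anterior pituitary ECs. Neither holds the motifs searched here, TTCAAAG and ATCAAAG (TCF/LEF), TGTTTAC (forkhead) and ACAATGG (SOX), on either strand. The windows are chr13:31620240-31620440 and chr13:31665248-31665448, plus strand of GRCm38 from RefSeq.
Foxf2 upstream region: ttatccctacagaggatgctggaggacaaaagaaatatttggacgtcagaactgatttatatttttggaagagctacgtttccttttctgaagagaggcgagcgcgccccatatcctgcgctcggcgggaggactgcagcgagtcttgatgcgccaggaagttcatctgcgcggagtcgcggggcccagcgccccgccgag
Foxf2 downstream region: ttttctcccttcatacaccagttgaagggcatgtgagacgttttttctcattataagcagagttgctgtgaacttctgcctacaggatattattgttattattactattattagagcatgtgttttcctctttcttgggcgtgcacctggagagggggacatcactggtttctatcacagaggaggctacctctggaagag

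Foxq1 had peaks over its gene body in all 12 libraries, and none of them was gained. The region 2.1 kb into the gene also lies over an exon of A530084C06Rik, whose start site is nearer, at 1116 bp. This region had a fold enrichment of 12.3 and 10.4 in WT cerebellar, 5.53 and 5.50 in WT anterior pituitary and 5.50 and 6.07 in WT posterior pituitary ECs. It was thus accessible in the tissues where Foxq1 had 0 to 8 reads. In stabilized ECs it was 12.0 and 12.3, 9.26 and 9.68, and 7.99 and 4.50 in the same order. In the anterior pituitary the mean ratio of stabilized to WT was 1.72, above 97.7% of the peaks shared by both genotypes. In the posterior pituitary the ratio was 1.08 and the groups overlapped.

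Foxc1 had a region in an intron of Gmds, 23987 bp downstream of its start site (chr13:31830152-31831014), that was gained in stabilized posterior pituitary ECs. It had no peak in either WT posterior pituitary library and a fold enrichment of 10.0 and 10.8 after stabilization. In the other tissues it was open in both genotypes, at 11.7 and 10.2 in WT cerebellar ECs, 16.3 and 14.7 in their stabilized counterparts, and in the anterior pituitary it went from 12.1 and 13.8 to 16.4 and 17.7. A region 13.9 kb upstream of Foxc1 went the other way and was lost in the posterior pituitary (3.89 and 4.12 in WT). In the cerebellum 4 low regions near Foxc1 were gained, with fold enrichments of 2.03 to 3.36.

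The summit window of the Gmds intron region (chr13:31830520-31830720) holds 1 ATCAAAG, read on the opposite strand and printed in capitals as CTTTGAT. It is shown because it is the most enriched of the regions gained near these genes in the posterior pituitary.
Foxc1 downstream region: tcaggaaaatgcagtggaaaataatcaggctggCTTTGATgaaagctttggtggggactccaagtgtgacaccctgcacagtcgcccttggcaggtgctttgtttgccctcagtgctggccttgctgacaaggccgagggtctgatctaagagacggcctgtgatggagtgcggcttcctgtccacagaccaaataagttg

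Sox17 had the shared peaks with the largest ratios of stabilized to WT height near these genes. Of the peaks that both replicates of both genotypes had, 0.836% in the anterior pituitary, 4.89% in the posterior pituitary and 3.92% in the cerebellum were at least 2-fold higher on average in stabilized ECs without overlap between groups, and the median ratios of all shared peaks were 1.12, 1.31 and 1.28. The region 46.9 kb upstream of Sox17 (chr1:4543788-4544863) went from 3.06 and 3.66 to 10.2 and 8.83 in anterior pituitary ECs (ratio 2.84) and from 3.92 and 4.55 to 8.68 and 10.6 in posterior pituitary ECs (ratio 2.27). In the cerebellum it was already at 13.4 and 11.6 in WT and measured 15.0 and 14.6 after stabilization. The region 25.9 kb downstream (chr1:4470726-4471905) went from 4.37 and 5.71 to 11.5 and 18.8 in the anterior pituitary (ratio 3.01), from 4.32 and 4.55 to 10.4 and 5.49 in the posterior pituitary (ratio 1.79), and from 12.0 and 13.4 to 17.3 and 18.1 in the cerebellum. In both pituitary lobes the WT values of these regions were below those of WT cerebellar ECs, and no other peak near the 7 genes reached a 2-fold mean ratio. The Sox17 reads of the same tissues did not differ between genotypes by the test.

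A further Sox17 region, 21.1 kb upstream (chr1:4518193-4518788), was specific to the cerebellum in these libraries, at 8.98 and 10.2 in stabilized ECs and 4.40 in 1 of 2 WT libraries, with no peak in the pituitary. A region 40.5 kb downstream was found in stabilized cerebellar ECs alone (6.57 and 4.39). The 3 windows below are printed as the upstream and downstream Sox17 regions described above with the largest stabilized to WT ratios in the pituitary, and the upstream region found in both stabilized and 1 WT cerebellar library. Capitals mark TGTTTAC in the far upstream region (chr1:4544165-4544365) and TTCAAAG, read on the opposite strand as CTTTGAA, in the near upstream region (chr1:4518329-4518529). The downstream window (chr1:4471381-4471581) holds none of the 4 motifs.
Sox17 far upstream region: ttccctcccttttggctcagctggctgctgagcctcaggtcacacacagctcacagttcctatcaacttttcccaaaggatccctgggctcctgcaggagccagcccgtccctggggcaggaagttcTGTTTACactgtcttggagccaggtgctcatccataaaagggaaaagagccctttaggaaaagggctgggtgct
Sox17 near upstream region: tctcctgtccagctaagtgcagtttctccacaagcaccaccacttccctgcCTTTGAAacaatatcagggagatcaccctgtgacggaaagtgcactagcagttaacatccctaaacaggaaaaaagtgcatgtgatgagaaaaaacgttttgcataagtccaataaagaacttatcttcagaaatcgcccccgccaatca
Sox17 downstream region: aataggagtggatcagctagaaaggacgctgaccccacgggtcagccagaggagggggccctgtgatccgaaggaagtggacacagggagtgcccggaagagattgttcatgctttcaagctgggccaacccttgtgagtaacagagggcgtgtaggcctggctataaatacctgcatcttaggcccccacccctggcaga

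Sox7 gained 4 regions in the posterior pituitary, with fold enrichments of 3.02 to 5.39, and Foxl2 gained 3. The Foxl2 region 12.5 kb upstream (chr9:98942379-98943214) measured 3.47 and 4.70 there after stabilization and had no peak in WT. It measured 11.5 to 15.2 in every library of the other tissues. Its summit window (chr9:98942727-98942927) is shown because it alone holds motifs of 2 kinds, TGTTTAC, read on the opposite strand as GTAAACA, and ACAATGG.
Foxl2 upstream region: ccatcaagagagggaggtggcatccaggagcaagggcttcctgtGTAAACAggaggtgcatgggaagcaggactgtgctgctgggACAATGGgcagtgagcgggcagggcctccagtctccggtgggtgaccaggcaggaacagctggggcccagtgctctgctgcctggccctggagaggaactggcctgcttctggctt

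Among all 64 regions 8 (12.5%) held any of the 4 motifs in their 201-base summit windows. The share of each single motif was near that of all peaks. TTCAAAG was in 2 of 64 (3.12%) against 4.66% of 66740 windows, ATCAAAG in 3 (4.69%) against 3.52%, TGTTTAC in 2 (3.12%) against 3.57%, and ACAATGG in 2 (3.12%) against 3.82%. RefSeq promoter sequences, matched for Foxf2, Foxc1 and Foxl2, held none of the 4 motifs in their 300 bases. Each motif was in 3.65% to 5.14% of 32851 promoters.

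Counts of genes with a gained or lost peak are set beside the share of all protein-coding genes with one. In the cerebellum 4 of the 7 genes had a gained peak (Foxc1, Foxl2, Sox7 and Sox17), where 32.7% of 21804 genes did, and 0 had a lost one, where 4.09% did. In the anterior pituitary 0 had a gained peak, where 17.9% did, and 2 had a lost one (Foxq1 and Sox18), where 12.9% did. In the posterior pituitary 5 had a gained peak (Foxc1, Foxl2, Sox7, Sox17 and Sox18), where 38.7% did, and 1 had a lost one (Foxc1), where 2.87% did. These counts are of single peaks. The gained Sox17 peak in the posterior pituitary and the lost Foxq1 peak in the anterior pituitary lie inside wider regions, merged over the 12 libraries, in which both genotypes had a peak, so by region neither gene gained or lost one there.

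Between WT tissues, peaks of the cerebellum and not the posterior pituitary were near 3 genes (Foxf2, Foxc1 and Foxl2), where the background was 24.7%, and the reverse near 1 gene (Sox17), where it was 12.4%. Peaks of the anterior pituitary and not the cerebellum were near 6 genes, all but Foxf2, where it was 52.8%. The Foxq1 peak among these lies inside a region in which all 12 libraries had a peak, so 5 genes remain when regions are counted. The tissues differed in the number of peaks called. Anterior pituitary libraries had 36860 to 45040 peaks in all and WT posterior pituitary libraries 20634 to 21050. Stabilized libraries had more peaks than WT ones in the posterior pituitary (28926 and 38583) and in the cerebellum (33514 and 31669 against 26394 and 24020), and the part of this in the gained peaks was not tested.

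**Figure D4:**
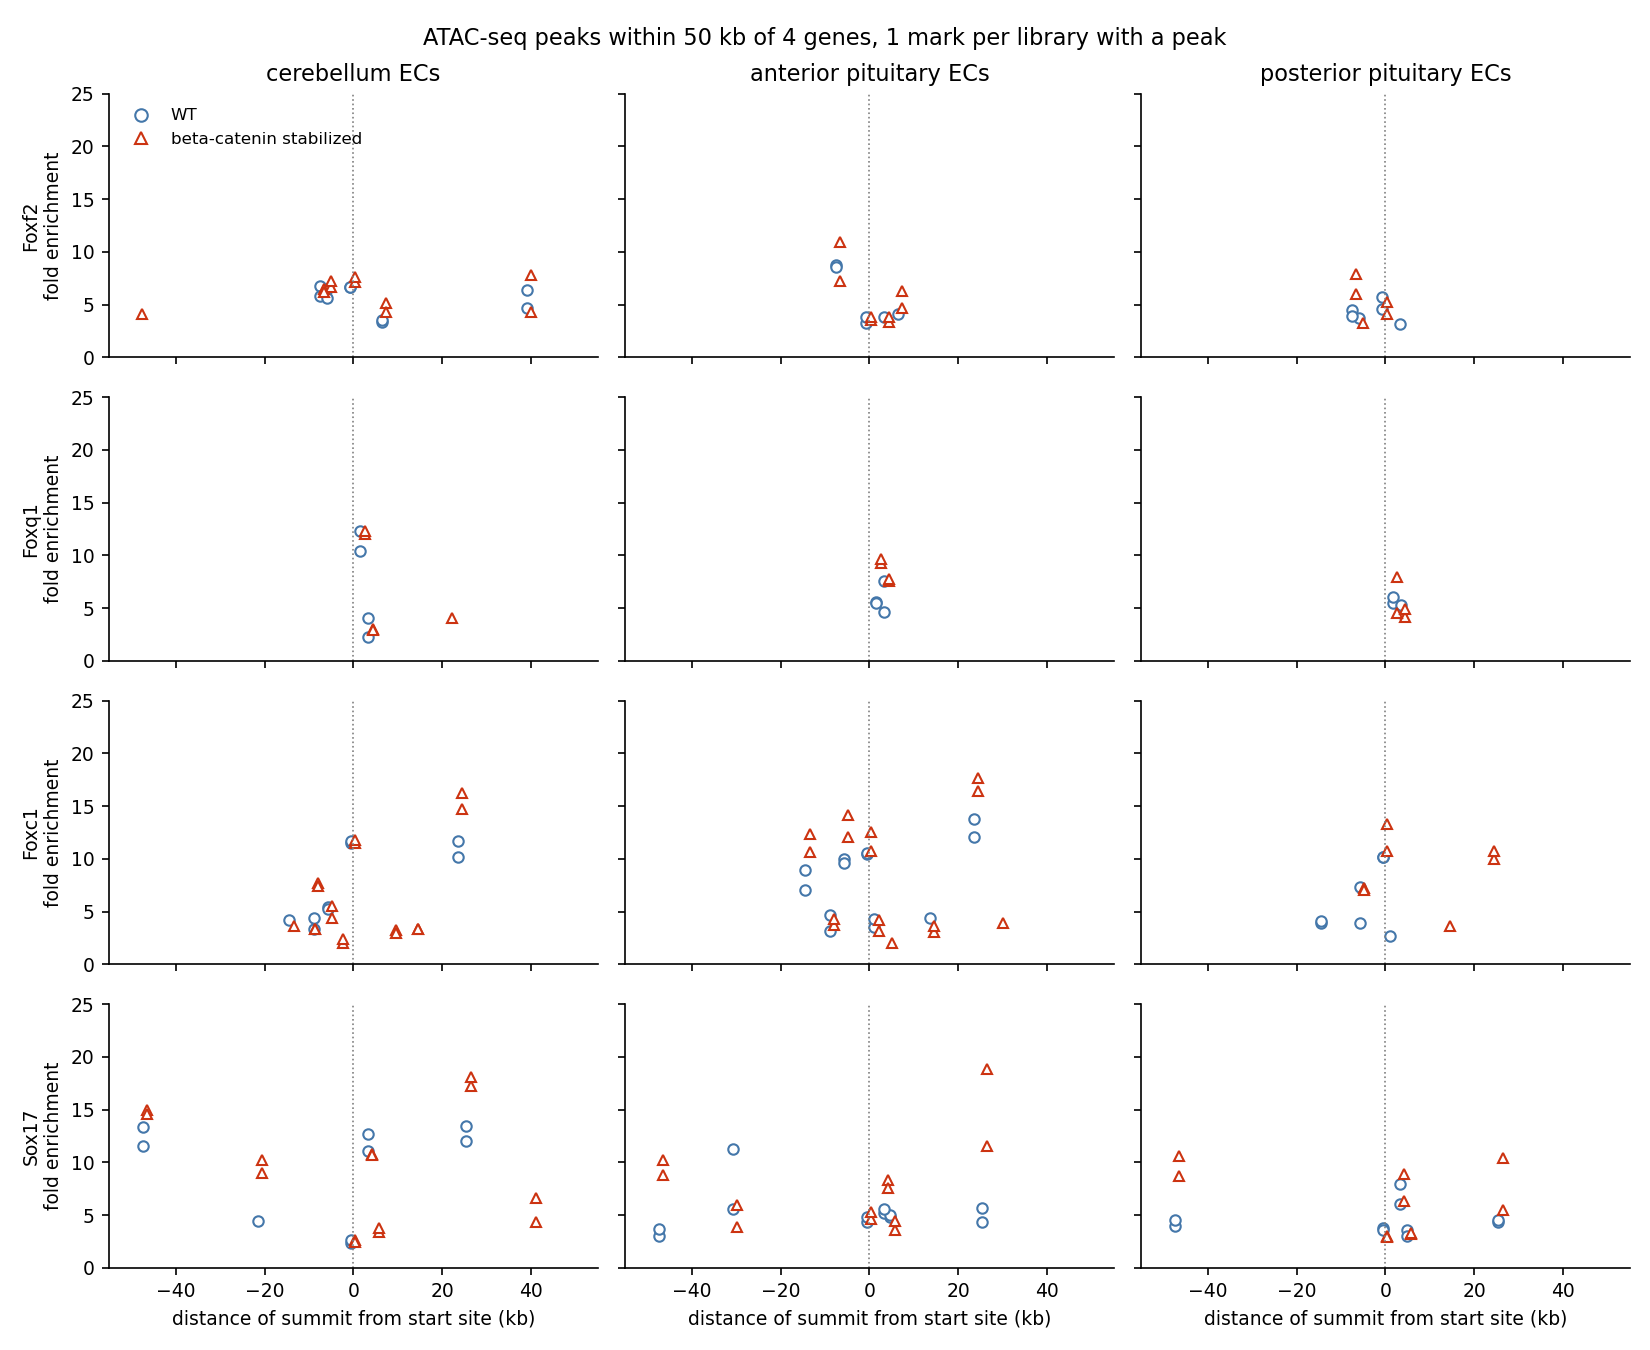
ATAC-seq peaks around Foxf2, Foxq1, Foxc1 and Sox17 in ECs of each tissue: fold enrichment against the distance of the summit from the start site in kb, with 1 mark for each library that has the peak and the genotypes set slightly apart. Foxf2 has its peak 39.5 kb downstream in the cerebellum column alone, Foxc1 gains the peak in the Gmds intron in the posterior pituitary, and the outer Sox17 peaks are higher in stabilized than in WT pituitary ECs.

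Across the 12 libraries of sorted ECs, Foxq1 and Foxc1 had the most similar profiles of the 3 chromosome 13 genes (Pearson r of log2 TPM, 0.958), with 0.854 for Foxf2 and Foxq1 and 0.762 for Foxf2 and Foxc1. Among 7837 genes the ones most alike to Foxf2 were Sema3c (0.987), Edn1 (0.976) and Fam13c (0.954), those most alike to Foxq1 were Srarp (0.989), the organic anion transporter gene Slc22a8 (0.988) and Ddc (0.986), and among those most alike to Foxc1 was Slc1a1 (0.979). The highest coefficients of the other genes were lower. Sox7 was most alike to Retreg3 (0.936), Eps15l1 (0.920) and Maf1 (0.917), and Sox17 to Ddhd1 (0.869), Gosr1 (0.829) and Scamp4 (0.819). Sox18 was most alike to Qtrt1 (0.904), Usf1 (0.894) and Nsa2 (0.892), and Foxl2 to Kcnj8 (0.811), Dnajb5 (0.808) and Naa15 (0.804). These coefficients describe 6 groups of 2 libraries that share tissue and genotype, with library depths that differ.

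Of the Wnt pathway and target genes many moved in the same comparisons. Of all genes tested, 5.25% were called between WT cerebellar and anterior pituitary ECs. After stabilization 0.648% were called in the cerebellum, 0.458% in the anterior and 1.82% in the posterior pituitary. In bound RNA 6.31% were called in cortex and 0.853% in choroid plexus after stabilization. Of 19 genes of this list tested, 10 were higher and 1 was lower in WT cerebellar than anterior pituitary ECs, with a median of 2.38 against 0 for all genes. After stabilization 0 of 19 were called in the cerebellum, 5 were higher in the anterior pituitary (median 0.86 against 0.06) and 7 in the posterior pituitary (median 2.18 against 0.01). In both lobes Tnfrsf19 had the largest fitted rise. In bound RNA 4 of 18 were higher in cortex, led by the beta-catenin target genes Axin2 (2.66 ± 0.27) and Nkd1 (2.51 ± 0.43), and 5 in choroid plexus, led by Notum and Apcdd1 (6.62 ± 0.65). Of 11 barrier genes 10 were higher in WT cerebellar than anterior pituitary ECs and 1, the fenestral diaphragm gene Plvap, was lower. After stabilization 4 were higher in the anterior and 9 in the posterior pituitary, led in both by the lipid transporter gene Mfsd2a.

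Other genes of the same families and cell type had the counts below, and the shares of all genes called are those just given. Counts of 0 or 1 in a list are close to what those shares give and are not read as results about a family. Of 15 other endothelial transcription factor genes 2 were higher (Epas1 by 2.1 and Gata2 by 1.0) and 2 were lower (Mef2c at -1.98 and Nr2f2 at -1.66) in WT cerebellar than anterior pituitary ECs, and 0 were called after stabilization in any sorted tissue. In bound RNA 1 was called higher in stabilized cortex (Gata2, by 2.02 ± 0.43, adjusted p = 0.0266) and 2 in stabilized choroid plexus (Ets1 by 1.65 ± 0.30, adjusted p = 0.0404, and Ets2 by 1.61 ± 0.30, adjusted p = 0.0451). Of the other FOX genes 18 of 40 passed the filter and 1, Foxf1, was higher in WT cerebellar than anterior pituitary ECs. Of the other SOX genes 12 of 16 passed and 1, Sox13, was higher there (1.49 ± 0.33). None of those FOX or SOX genes was called after stabilization in sorted ECs or in bound RNA. Whether the 7 genes differ from these lists was not tested.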

How the data were processed

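RNA-seq and ATAC-seq were made from the groups described above. The authors quantified each RNA library alone with Salmon 0.10.2, with sequence, GC and position bias correction, on an mm10 (GRCm38) Ensembl transcriptome, and deposited estimated counts, TPM and effective lengths per transcript. They aligned ATAC-seq reads with Bowtie2 2.3.2, used Picard against duplicates, and ran MACS2 2.1.1.20160309 library by library; the deposited peaks carry a fold enrichment and −log10 p and q values.

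Here transcript values were summed per gene by GENCODE M21, with at most 0.395% of reads unmatched, and estimated counts were rounded. The main test was edgeR 4.0.16 (R 4.3.3): TMM factors, filterByExpr and a quasi-likelihood fit over all groups of a fraction (sorted GFP-positive, GFP-negative, all sorted, bound, or all RiboTag), with a call at an adjusted p under 0.05 and at least 2-fold. Groups had 2 libraries of pooled or single animals. The p-values rest on the spread between replicate libraries over all groups of a fit, with information shared across genes. They do not measure the spread of the compared groups alone. Leaving out a library leaves 1 in its group, and the other groups then give the spread. Folds against a group with 0 reads used a floor of 3 reads over the group, and counting intervals are exact and cover counting error only. Peak overlap needed 1 bp (bedtools 2.31.1). Similarity used log2(TPM + 1) over genes with a mean of at least 10 TPM in 1 group. The genes and lists were chosen with earlier results of these data known. The rule named all 7 genes, up to 3 most similar genes for each, and of each list at most the 2 genes with the largest called rise and the 2 with the largest called fall. The alternatives were DESeq2 1.42.0, other scalings, no filter, the replicate block, leaving out each library, fitting the compared groups alone, other peak thresholds and windows, and, added after the data were seen, an effective length offset and scaling to EC marker reads. The scripts were tested on simulated data.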

Additional observations from a re-analysis of the deposited data

Results flagged for a closer look

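The fitted response of Sox18 differed between the 2 RiboTag tissues in the test of the difference itself, a call that 2 other settings ended. Its change with beta-catenin stabilization in choroid plexus bound RNA minus that in cortex bound RNA was -3.17 ± 0.45 on the log2 scale (adjusted p = 0.0130, edgeR). The change was 3.94 in cortex and 0.77 in choroid plexus, and the TPM were 9.85 and 10.1 in WT cortex, 25.3 and 25.8 in stabilized cortex, 9.06 and 18.0 in WT choroid plexus and 17.5 and 24.3 in stabilized choroid plexus. The effective length of Sox18 was 487 and 514 bases in the WT cortex bound libraries and 1339 to 1591 bases in the other bound libraries, and with an effective length offset the difference was -1.64 (adjusted p = 0.232). With scaling to EC marker reads it was -2.56 (adjusted p = 0.186). Genotype and the profile of the WT cortex libraries cannot be told apart in this difference.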

How the results depend on the processing

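Most counts of called genes were within 1.5 times their value under the alternatives (259 of 324 counts), and 967 of 1081 fold changes of single genes kept their direction and their side of the threshold. The cause of each difference below was not tested.

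Without the filter on low counts the number of the 7 genes called went from 3 to 5 for WT cerebellar against anterior pituitary ECs, from 1 to 4 between the WT pituitary lobes, from 1 to 2 for stabilization in each pituitary lobe, from 0 to 1 for the difference of those responses, from 4 to 7 in cortex and from 2 to 4 in choroid plexus bound RNA. DESeq2 gave 5 between the lobes, 2 for the stabilized posterior pituitary, 1 for the difference of responses and 7 for anterior pituitary GFP-positive against GFP-negative cells. Of those 7, Foxf2 and Foxq1 were lower in GFP-positive cells. Scaling to EC marker reads gave 5 and 6 for WT cerebellum against the anterior and posterior pituitary, 2 for the stabilized posterior pituitary, 1 for the difference of responses, 1 in cortex, and 0 in choroid plexus bound RNA and for the difference between these. It moved the median of all genes by up to 1.0. The effective length offset gave 0 for stabilized posterior pituitary against WT cerebellum, 1 in cortex, and 0 in choroid plexus and for their difference. Fitting the compared groups alone gave 0 between the lobes, 0 in each stabilized lobe and 2 for posterior pituitary GFP-positive against GFP-negative cells. With a replicate block 2 genes were called in the stabilized posterior pituitary and 1 in choroid plexus bound RNA. Deviations of same-numbered libraries from their group means had 0 of 15 correlations over 0.1 in sorted ECs and 0 of 6 in bound RNA. In bound and input RNA together 1 of 28 was over 0.1, at 0.144. These values cannot show that samples were unpaired. Input was an aliquot of the homogenate used for bound RNA, and both lobes came from the same pituitaries. The main fits did not pair libraries.

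Leaving out each library in turn gave 1 to 3 between the lobes, 0 to 2 for the stabilized anterior pituitary, 0 to 2 for the difference of pituitary responses, 1 to 2 for stabilized posterior pituitary against WT cerebellum, 1 to 5 in cortex, 1 to 2 in choroid plexus, and 2 to 4 for choroid plexus bound against input RNA. Foxq1's posterior minus anterior response ranged from -2.77 to 3.89 without single libraries, the latter without WT posterior pituitary replicate 2, against -1.47. Foxl2's bound against input difference in choroid plexus ranged from -0.22, without WT bound replicate 2, to 2.26, against 1.51.

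For peaks, the share of all protein-coding genes under the same setting is given in parentheses. A fold enrichment over 4 with a -log10 q over 5 gave 2 genes with a peak gained in the anterior pituitary (18.4%). In the posterior pituitary it gave 3 (33.4%), and 0 had a peak lost in either lobe (4.71% and 1.7%). It gave 2 with a WT peak of the cerebellum and not the anterior pituitary (10.2%), and 3 for the reverse (45.9%). A window of 100 kb gave 4 with a peak lost in the anterior pituitary (20.6%). It gave 3 for cerebellum and not anterior pituitary (21.3%) and 7 for cerebellum and not posterior pituitary (36.5%). With 1 replicate, gained peaks were near 5 to 7 genes in the cerebellum and 2 to 5 in the anterior pituitary, lost peaks near 1 to 1 in the cerebellum, 2 to 4 in the anterior and 2 to 2 in the posterior pituitary. Cerebellar peaks were near 1 to 3 genes against the anterior (20.3% to 28.4%) and 4 to 6 against the posterior pituitary (36.6% to 42.0%). Posterior pituitary peaks were near 3 to 5 against the cerebellum (25.8% to 27.5%). With a minimum mean of 1 TPM, 9 of the 21 most similar genes were shared.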
